A study of Mus musculus with 14 samples.

Results

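AMPA receptors are the glutamate-gated ion channels that carry most fast excitatory transmission in the hippocampus. The set described here has 9 genes, a list by name whose rule uses no measured value, though it was drawn up with earlier results of these data known: the 4 pore-forming subunits Gria1, Gria2, Gria3 and Gria4, and 5 auxiliary proteins, Cacng2, Cacng3, Cacng8, Cnih2 and Cnih3. All 9 had a value in each of 14 libraries, and all 9 passed the filter on low values, among 16880 genes tested of 18981 with any value. RNA came from whole hippocampus of C57BL6 mice aged 30 days, with 1 library per mouse. The mice were wild type or carried 1 βGeo allele of Kmt2d (KMT2D+/bGeo in the labels), so the mutants kept 1 other Kmt2d allele. They were gavaged daily from 2 weeks of age for 2 weeks with methylcellulose vehicle or with TAK-418 in it at 1 mg/kg/day. Vehicle was given to 3 wild types and 3 mutants, and TAK-418 to 5 wild types and 3 mutants. Kmt2d is a histone H3K4 methyltransferase, and TAK-418 inhibits the demethylase LSD1, the product of Kdm1a. No label says whether mice of a group shared a litter, and the numbers given to libraries below only name them.

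A receptor is a tetramer of GluA1 to GluA4, the products of Gria1 to Gria4, and its conductance, calcium permeability and kinetics depend on which subunits it holds. GluA2, edited at the RNA level in its pore loop, makes a channel nearly impermeable to calcium. The Cacng genes named here encode transmembrane AMPA receptor regulatory proteins (TARPs): stargazin (Cacng2), TARP gamma-3 (Cacng3) and TARP gamma-8 (Cacng8), which is abundant in the hippocampus and needed there for normal receptor levels outside synapses. Cornichons (Cnih2 and Cnih3) aid export of the receptor from the endoplasmic reticulum and slow its deactivation. Each subunit gene also has a pair of alternative exons, flip and flop, next to the last membrane-spanning segment. A transcript normally uses 1 of the pair, and the choice sets how fast the receptor desensitizes.

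The flip and flop exons are shown because they are the part of the subunits that the assembled transcripts distinguish. In the GENCODE M21 annotation (GRCm38) both exons of the pair were 115 bases long in all 4 genes, and flop lay upstream of flip. The exons were named from the translated reference: flip carries serine, and flop asparagine, at the site known for its role in block of desensitization by cyclothiazide. The flop and flip exons lay at chr11:57309769-57309883 and chr11:57310608-57310722 on the plus strand for Gria1. They lay at chr3:80691320-80691434 and chr3:80690404-80690518 on the minus strand for Gria2. For Gria3 they lay at chrX:41654810-41654924 and chrX:41669501-41669615 on the plus strand. For Gria4 they lay at chr9:4432773-4432887 and chr9:4427030-4427144 on the minus strand. The sequences run 5′ to 3′ on the coding strand, and capitals mark the bases that differ between flip and flop of the same gene.
Gria1 flop: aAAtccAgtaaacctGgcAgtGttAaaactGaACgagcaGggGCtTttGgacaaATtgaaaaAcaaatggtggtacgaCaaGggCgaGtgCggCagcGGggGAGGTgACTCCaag
Gria1 flip: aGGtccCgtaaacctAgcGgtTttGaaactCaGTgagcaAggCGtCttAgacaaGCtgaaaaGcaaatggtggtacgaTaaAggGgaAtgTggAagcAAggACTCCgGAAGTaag
Gria2 flop: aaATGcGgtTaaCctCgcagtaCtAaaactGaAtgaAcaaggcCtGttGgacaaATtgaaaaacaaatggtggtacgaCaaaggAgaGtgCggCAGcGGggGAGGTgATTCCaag
Gria2 flip: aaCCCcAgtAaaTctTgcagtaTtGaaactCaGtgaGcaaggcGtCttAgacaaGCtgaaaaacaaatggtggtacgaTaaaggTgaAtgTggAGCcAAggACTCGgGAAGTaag
Gria3 flop: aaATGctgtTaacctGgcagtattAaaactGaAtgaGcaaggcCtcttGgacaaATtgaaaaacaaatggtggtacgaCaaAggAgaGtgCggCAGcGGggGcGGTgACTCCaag
Gria3 flip: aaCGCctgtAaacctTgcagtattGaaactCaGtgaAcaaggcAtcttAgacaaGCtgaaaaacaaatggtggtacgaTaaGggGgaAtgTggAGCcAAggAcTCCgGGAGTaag
Gria4 flop: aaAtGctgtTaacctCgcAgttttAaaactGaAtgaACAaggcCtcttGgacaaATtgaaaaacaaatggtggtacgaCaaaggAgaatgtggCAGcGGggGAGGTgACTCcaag
Gria4 flip: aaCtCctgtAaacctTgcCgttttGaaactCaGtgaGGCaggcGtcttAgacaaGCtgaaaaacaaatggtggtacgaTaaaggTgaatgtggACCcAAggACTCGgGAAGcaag

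Flip and flop of the same gene differed at 36 bases in Gria1, 36 in Gria2, 32 in Gria3 and 31 in Gria4. Over the 38 whole codons of the exon these changed 8 residues in GluA1, 9 in GluA2, 9 in GluA3 and 10 in GluA4. Between genes the flop exons were the more alike in protein. The flop residues of GluA2, GluA3 and GluA4 differed at 0 positions, and each differed from GluA1 at 1, while their DNA differed at 6 to 14 bases. The flip residues differed between genes at 1 to 4 positions.

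The smallest step between abundance values gives a relative depth, not a read total: 167.6 for library 1 of the TAK-418 wild types and 34.9 to 59.6 for the other 13. Kmt2d did not separate the genotypes: its scaled abundance was 13.8 to 14.2 in wild-type vehicle, 10.6 to 14.4 in mutant vehicle, 12.5 to 18.0 in wild-type TAK-418 and 9.35 to 14.6 in mutant TAK-418 libraries, so it checks no label. Kdm1a ranged from 29.9 to 35.8. All 8 listed markers of hippocampal pyramidal and granule neurons had a value, with a sum of 460 to 579. Choroid plexus markers (5 genes, Ttr the highest) summed to 6464 in wild-type vehicle library 3 and 5024 in mutant vehicle library 1, to 908 in mutant vehicle library 3 and 608 in mutant TAK-418 library 1, and to 15.4 to 44.3 in the other 10. In whole tissue, fewer cells of a type and less RNA per cell cannot be told apart.

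Values below are scaled abundances, which resemble FPKM, fragments per kilobase scaled to depth: the authors' abundance of each assembled transcript, summed over a gene and scaled between libraries. Over all 14 libraries Gria1 averaged 265 ± 39.4 (SD, n = 14) and Gria2 233 ± 40.5 (SD, n = 14). The minor subunits averaged 69.5 ± 3.70 (SD, n = 14) for Gria3 and 21.4 ± 1.17 (SD, n = 14) for Gria4. Of the 4 subunits together, Gria1 made up a mean of 45.0%, Gria2 39.5%, Gria3 11.8% and Gria4 3.65%. Thus the calcium-limiting subunit Gria2 and its common partner Gria1 took most of the subunit RNA in each library.

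Among the TARPs of this set, Cacng8 was highest at 94.9 ± 17.9 (SD, n = 14), against 32.5 ± 2.07 (SD, n = 14) for Cacng3 and 22.1 ± 1.01 (SD, n = 14) for Cacng2. Other TARP genes, outside the set, averaged 69.1 (Cacng7), 12.3 (Cacng4) and 5.18 (Cacng5), so Cacng7 stood above Cacng3 and Cacng2. Of the summed values of Cacng8, Cacng3 and Cacng2 alone, Cacng8 made up a mean of 63.1%, Cacng3 22.0% and Cacng2 15.0%. With transcripts weighted by length the Cacng8 share ranged from 38.3% to 77.3% over the 14 libraries, and the Cacng3 share from 13.1% to 37.1%. Of the cornichons, Cnih3 averaged 36.3 ± 2.76 (SD, n = 14). The value listed for Cnih2, 192 ± 10.1 (SD, n = 14), is shared with its neighbour Rab1b, a GTPase of vesicle transport. In 14 of 14 libraries the assembler joined both genes into a transcript of 11 exons through an exon at chr19:5098183-5100572 (GRCm38, minus strand), and in 13 libraries it gave no other Cnih2 transcript. The authors' deposited tables list the genes as separate loci, with Cnih2 at 325 to 354 FPKM and Rab1b at 69.5 to 71.8 FPKM, so the Cnih2 value per library is a joint level. The Cnih2 locus of these tables, chr19:5070859-5098418, is itself longer than the annotated gene (chr19:5092868-5098521).

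The other members lie at chrX:41400854-41678601 (Gria3, plus strand), chr9:4417896-4796234 (Gria4, minus), chr15:77991748-78120028 (Cacng2, minus), chr7:122670492-122769393 (Cacng3, plus), chr7:3390683-3415648 (Cacng8, plus) and chr1:181352628-181460641 (Cnih3, plus) in GRCm38.

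Ordered by their mean, the genes ran Gria1, Gria2, Cnih2 with Rab1b, Cacng8, Gria3, Cnih3, Cacng3, Cacng2 and Gria4. No overlap was seen over the 14 libraries at the steps from Cnih2 down to Cacng8, from Gria3 down to Cnih3 and from Cacng3 down to Cacng2. Cacng8 was above Gria3 in 14 of 14 libraries, although their ranges, 75.0 to 149 and 63.3 to 77.9, overlapped, and in 9 of 14 with transcripts weighted by length. The other neighbours were not apart: Gria1 exceeded Gria2 in 10 of 14 libraries, Gria2 exceeded the joint Cnih2 value in 11, Cnih3 exceeded Cacng3 in 13, and Cacng2 exceeded Gria4 in 11. Averaged over coding exons the order of Cnih3 and Cacng3 turned, with Cacng3 above in 8 of 14 libraries. In the authors' deposited tables Cnih2 was above Gria1 (223 to 231 FPKM) and Gria2 (172 to 176 FPKM, at a locus that also names Gm25749). The remaining loci there were Cacng8 at 75.2 to 82.9 FPKM (a locus shared with Cacng6 and Gm23450), Gria3 at 53.4 to 55.4, Cnih3 at 26.5 to 30.7, Cacng3 at 20.2 to 23.1, Gria4 at 17.7 to 18.1 and Cacng2 at 14.4 to 15.3. Gria4 and Cacng2 thus stood in the opposite order in the 2 sources.

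**Figure D1:**
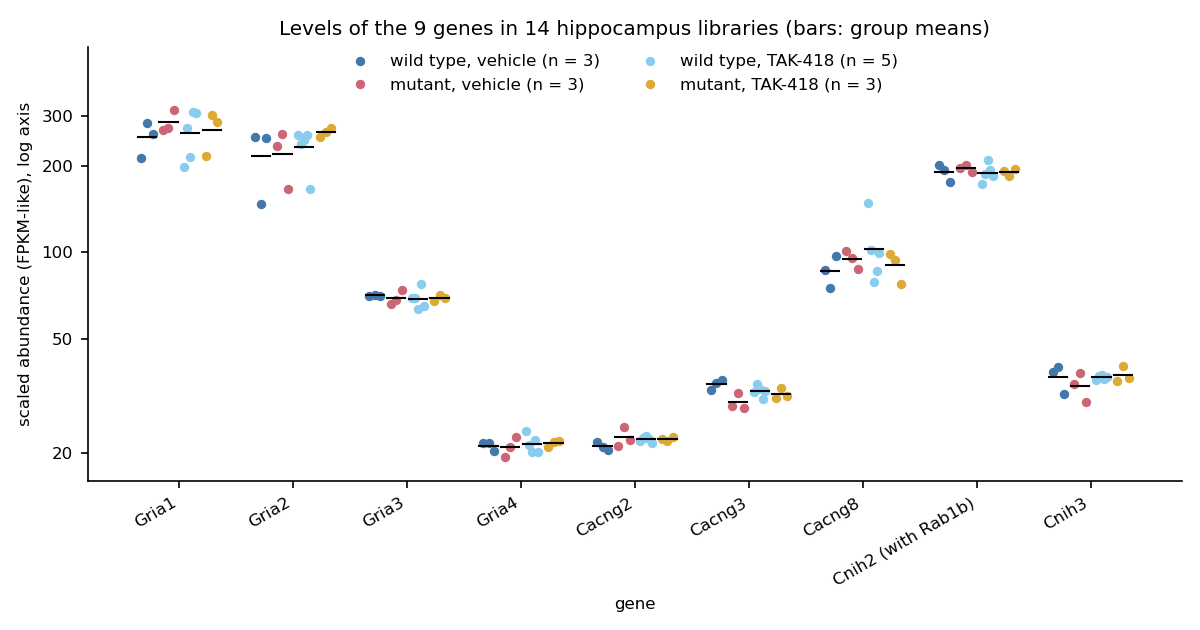
Scaled abundance (FPKM-like, log axis) of the 9 genes; each point is 1 library, coloured by group, and bars are group means. Gria1 and Gria2 sit between 148 and 314, Gria4 and Cacng2 between 19.4 and 24.7, and between wild types and mutants given vehicle the points overlap for each gene except Cacng3.

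In scaled abundance Gria1 and Gria2 varied most among the subunits, with coefficients of variation of 14.9% and 17.4%, against 5.32% for Gria3 and 5.50% for Gria4. With transcripts weighted by length the coefficients were 5.14% for Gria1, 7.23% for Gria2, 7.17% for Gria3 and 5.47% for Gria4. Averaged over coding exons they were 15.6%, 16.2%, 10.4% and 5.41% in the same order. Gria1 was 214, 283 and 259 in wild-type vehicle libraries 1 to 3 and 268, 271 and 314 in mutant vehicle libraries 1 to 3. It was 198, 271, 215, 308 and 307 in wild-type TAK-418 libraries 1 to 5 and 216, 302 and 284 in mutant TAK-418 libraries 1 to 3. The 4 libraries at 198 to 216 came from every group but the vehicle mutants, and the groups overlapped.

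The Gria1 values followed the length of the assembled transcripts. In the 6 libraries with a mean transcript length of 5234 to 5276 bases Gria1 was 283 to 314, in the 4 with 5718 to 6461 bases it was 259 to 271, and in the 4 with 7898 to 8897 bases it was 198 to 216. The transcripts in the latter 4 libraries ran 2378 to 3372 bases past the annotated 3′ end of Gria1 (chr11:57011387-57330244, plus strand). With each transcript weighted by its length, Gria1 covered 217 to 254 over all 14 libraries, a ratio of 1.17 in place of 1.59.

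Gria2 was 252, 148 and 250 in wild-type vehicle libraries 1 to 3 and 235, 258 and 166 in mutant vehicle libraries 1 to 3. It was 257, 239, 246, 257 and 167 in wild-type TAK-418 libraries 1 to 5, and 252, 262 and 272 in mutant TAK-418 libraries 1 to 3. A single library was low in each group except the treated mutants. These 3 low libraries were the ones with long Gria2 transcripts: their mean length was 10189 to 11666 bases, against 5373 to 6484 in the other 11, where Gria2 was 235 to 272. In the 3 libraries 100% of the Gria2 abundance lay in transcripts that ended within 1000 bases of the annotated 3′ end (chr3:80681450-80802835, minus strand). In the other 11 that share was 0% to 6.51%. Weighting transcripts by length turned the 3 lowest values into 256 to 261, above the 197 to 242 of the other 11 libraries. Gria2 RNA with a long and with a short 3′ end is known from rodent brain. The part of transcript length in the differences between groups was not tested for either gene beyond the length-weighted values.

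**Figure D2:**
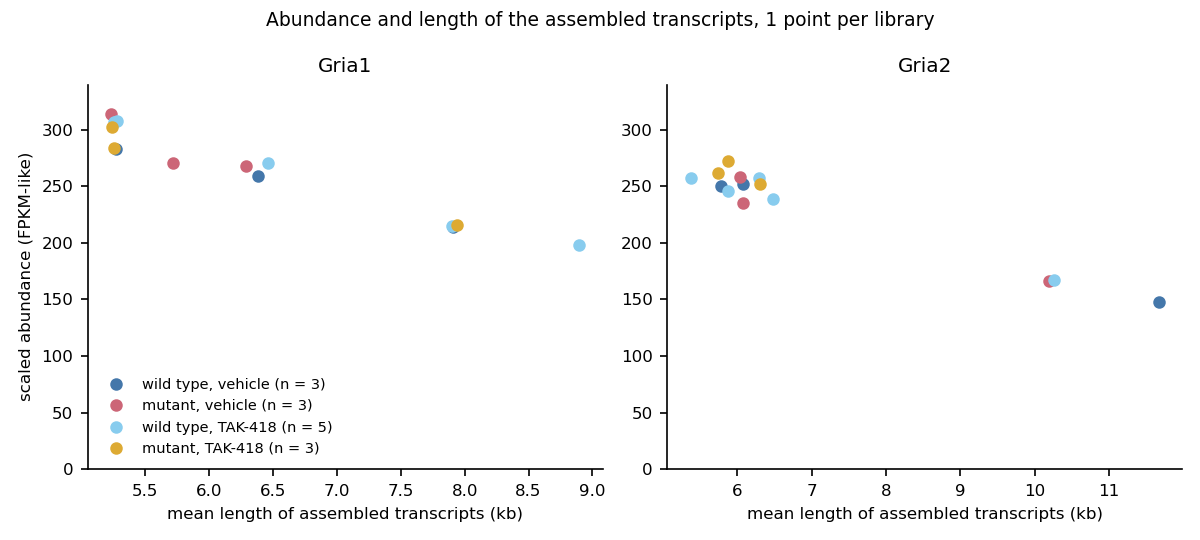
Scaled abundance (FPKM-like) of Gria1 and Gria2 against the mean length of their assembled transcripts in kilobases, weighted by abundance; each point is 1 library, coloured by group. The 3 libraries with Gria2 transcripts of 10189 to 11666 bases hold the lowest Gria2 values (148 to 167), and the 4 with the longest Gria1 transcripts hold the lowest Gria1 values (198 to 216).

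In scaled abundance the other members varied less between libraries, apart from Cacng8. Gria3 ranged from 63.3 to 77.9 and Gria4 from 19.4 to 23.8. Gria3 lies on the X chromosome: it was 64.8 to 71.1 in the 6 libraries with Xist RNA and 63.3 to 77.9 in the 8 with Xist at 0. Libraries with Xist numbered 2 of 3 in wild-type vehicle, 1 of 3 in mutant vehicle, 2 of 5 in wild-type TAK-418 and 1 of 3 in mutant TAK-418. Cacng2 ranged from 20.4 to 24.7, Cnih3 from 30.0 to 40.2 and the joint Cnih2 value from 173 to 210. Cacng8 was 86.9, 75.0 and 97.1 in wild-type vehicle and 101, 96.0 and 87.8 in mutant vehicle libraries. It was 149, 102, 79.0, 86.0 and 99.7 in wild-type TAK-418 and 98.4, 94.3 and 77.5 in mutant TAK-418 libraries. The value of 149 came from the deepest library, where Cacng8 was assembled in separate pieces that each added to the sum. Averaged over the annotated coding exons, Cacng8 was 62.6 to 96.4 in the 14 libraries and that library was not the highest. Weighted by length, Cacng8 had the widest spread of the 9 members, 33.4 to 182 with a coefficient of variation of 56.3%. The 5 libraries with a mean Cacng8 transcript length of 1718 to 2480 bases had length-weighted values of 33.4 to 39.6, and the 9 with 5827 to 9510 bases had 99.2 to 182.

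The flip share is the abundance of transcripts with the flip exon over that of transcripts with flip or flop but not both. Its median over the 14 libraries was 24.9% for Gria1, 40.9% for Gria2, 0% for Gria3 and 31.6% for Gria4. Among the assembled transcripts with flip or flop alone, flop was thus the more abundant in the median library for all 4 genes. This did not hold in each library: flip reached 100% in Gria1, 86.6% in Gria2 and 88.3% in Gria3. Gria4 was the steadiest, from 10.6% to 40.0%, with both forms in 14 of 14 libraries. Gria1 had both forms in 12 libraries, flop alone in wild-type vehicle library 1 and flip alone in mutant vehicle library 2, where the range of the other 12 was 6.73% to 32.4%.

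In Gria3 flip transcripts were assembled in 2 of 14 libraries, wild-type TAK-418 libraries 1 and 5, where they made up 88.3% and 87.1%. The other 12 libraries listed Gria3 flip at 0, which says that no such transcript was assembled, not that none was present. Gria2 ranged from 0% to 86.6%, and transcripts with flip or flop alone held 4.45% to 96.2% of its abundance. The rest of the Gria2 abundance lay in transcripts with neither exon as annotated (up to 10 transcripts were assembled per library) or with both. For comparison, transcripts with flip or flop alone held 27.0% to 100% of the abundance in Gria1, 55.3% to 99.6% in Gria3 and 58.7% to 78.9% in Gria4.

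Flip shares were compared between groups in 16 comparisons (4 genes in 4 contrasts of 2 groups, exact two-sided permutation tests with Benjamini-Hochberg adjustment). Tests of 3 against 3 libraries cannot give a p below 0.1 and so could not pass the threshold. After adjustment over the 16 comparisons, those of 3 against 5 could not pass it either. The outcome of all 16 was thus fixed by the group sizes, and the absence of a call says nothing about these shares. For Gria1 under vehicle the groups did not overlap: the flip share was 0%, 24.8% and 19.1% in wild types and 24.9%, 100% and 25.7% in mutants. The means were 14.6% and 50.2%, a difference of 35.6 percentage points (exact permutation p = 0.1, adjusted p = 0.857). The 100% came from mutant vehicle library 2, whose other Gria1 transcript has a flop exon with its downstream end shifted. Where 1 matching splice site was enough, that library stood at 77.6% and the difference at 28.1 points. The 0% came from wild-type vehicle library 1, with a mean Gria1 transcript length of 7912 bases, against 5234 to 6285 in the vehicle mutants. Over all groups the flip share was 0% to 7.87% in the 4 libraries with 7898 to 8897 bases. It was 24.0% to 30.7% in the 6 libraries with 5234 to 5276 bases. The part of transcript length in the Gria1 flip difference was not tested. Gria4 had means of 21.5% in wild-type vehicle and 32.5% in wild-type TAK-418 libraries (exact permutation p = 0.107, adjusted p = 0.857).

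**Figure D3:**
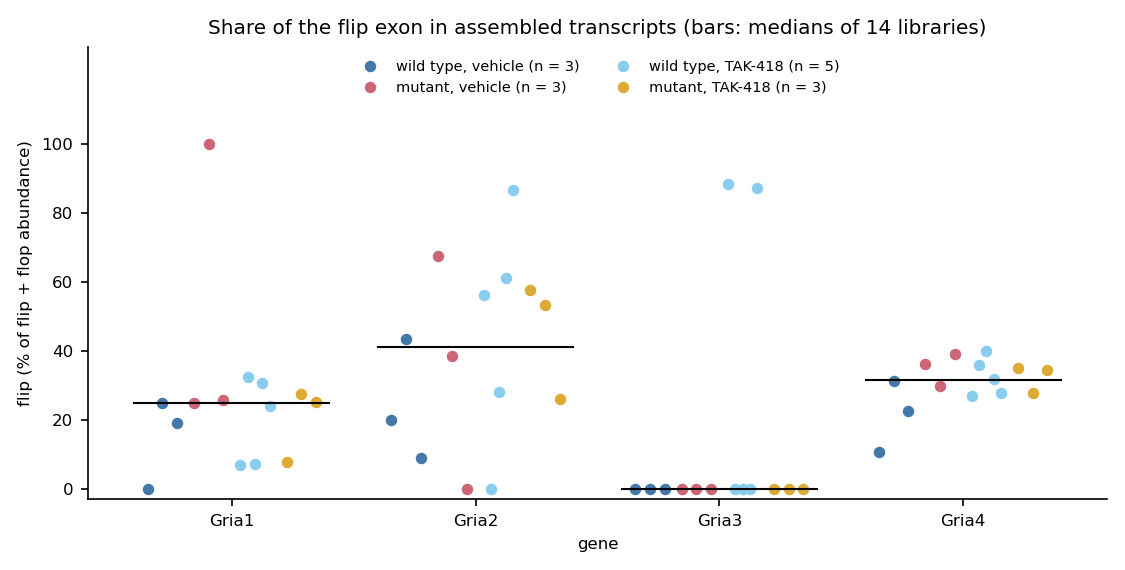
Percent flip of the summed flip and flop abundance for the 4 subunit genes; each point is 1 library, coloured by group, and bars are medians over 14 libraries. Gria4 stays between 10.6% and 40.0%, while Gria3 is at 0% in 12 libraries and at 87.1% and 88.3% in the other 2.

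Across the 5 contrasts no member passed the threshold of an adjusted p of 0.05 (limma, Benjamini-Hochberg over 16880 genes). Few genes passed at all. The share called was 0% for the genotype under vehicle, 0.00592% (1 gene) for TAK-418 in mutants, 0% for TAK-418 in wild types, 0.0118% (2 genes) for the genotype under TAK-418 and 0.00592% (1 gene) for the interaction. At an unadjusted p under 0.05 the shares of all genes were 5.36% (905 genes), 4.42% (746), 8.44% (1425), 4.95% (836) and 4.37% (738) in the same order. Of the 9 members, 1, 0, 0, 0 and 1 were under 0.05 unadjusted, Cacng3 both times. These Cacng3 results are not independent, because the interaction contains the genotype difference under vehicle.

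The question under vehicle is what loss of 1 Kmt2d allele does to these RNAs. Of the 9 members 5 were higher and 4 lower in mutants, with a median log2 difference of 0.03 beside a median of -0.00 over all genes. The largest positive estimate was Gria1, at a log2 difference of 0.18 ± 0.185 (SE) from means of 252 and 284 (limma, adjusted p = 1). Weighted by length, the Gria1 difference was 0.02. The 95% intervals of the 9 members stayed between -0.46 and 0.58.

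Cacng3, the TARP gamma-3 gene, was 33.2, 35.0 and 35.8 in wild-type vehicle libraries and 29.1, 32.4 and 28.8 in mutant vehicle libraries. All 3 mutants lay below all 3 wild types, so the vehicle groups did not overlap. For 3 against 3 libraries no exact permutation p can be below 0.1. The share of all genes without such overlap is not given here, so the separation alone says little about Cacng3. The log2 difference was -0.20 ± 0.0574 (SE), with an interval of -0.32 to -0.07, or 0.871 of the wild-type level (limma, adjusted p = 0.701). Over its alternatives the difference ranged from -0.27 with transcripts weighted by length to -0.11 with the highest transcript alone, and the adjusted p from 0.477 to 0.999. In the authors' deposited table of mutant vehicle over wild-type vehicle Cacng3 was 21.8 and 20.2 FPKM, a log2 fold change of -0.11 with a q-value of 1.

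The summed neocortex markers were also higher in the wild-type vehicle libraries. The 4 genes (Cux2, Rorb, Fezf2 and Rspo1) summed to 28.1 to 49.8 in wild-type vehicle and 22.1 to 25.0 in mutant vehicle libraries, groups that did not overlap. Fezf2, a transcription factor of deep-layer cortical neurons, made up most of the sum, at 19.9, 42.6 and 20.9 in wild-type and 14.7, 18.8 and 16.9 in mutant vehicle libraries. Cux2 and Rorb overlapped between the vehicle groups, and Rspo1 was listed at 0 in mutant vehicle library 1. The sums were 25.8 to 29.6 in wild-type TAK-418 and 24.6 to 26.7 in mutant TAK-418 libraries. The part of these markers in the Cacng3 difference was not tested. Without the 2 libraries with the most choroid plexus RNA the Cacng3 difference was -0.15.

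**Figure D4:**
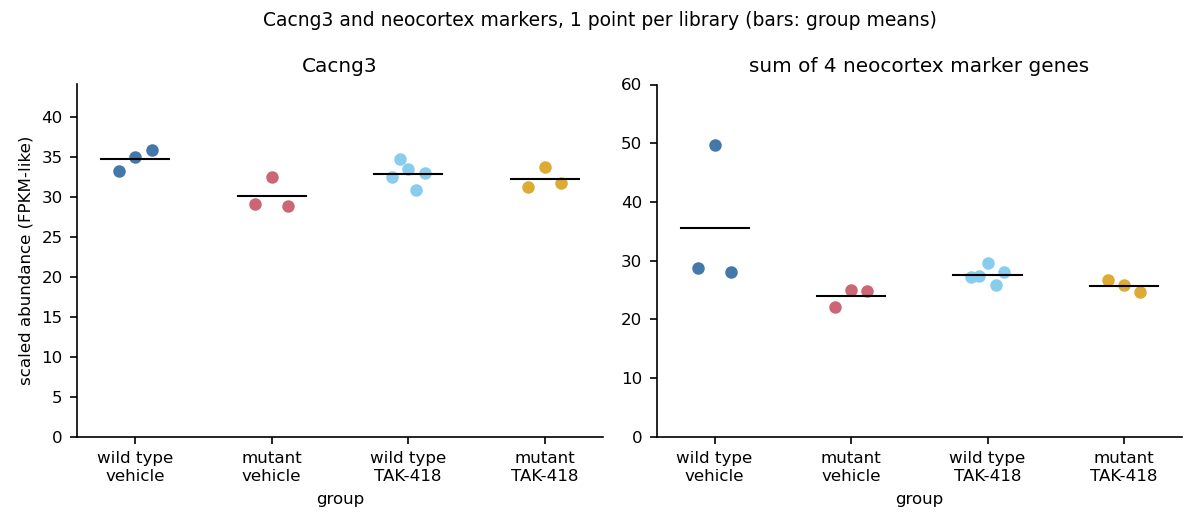
Scaled abundance (FPKM-like) of Cacng3 (left) and the sum of 4 neocortex marker genes (right) by group; each point is 1 library and bars are group means. The 3 mutant vehicle libraries (28.8 to 32.4 for Cacng3) lie below the 3 wild-type vehicle libraries (33.2 to 35.8), and the marker sums also do not overlap between these groups.

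TAK-418 in mutants asks whether the inhibitor shifts these genes in the heterozygotes. Here 4 members were higher and 5 lower, with a median of -0.00 beside 0.00 over all genes. Gria2 had the largest positive estimate, 0.28 ± 0.224 (SE), from means of 220 ± 48.0 (SD, n = 3) and 262 ± 9.97 (SD, n = 3) (limma, adjusted p = 1). That estimate was 0.09 without mutant vehicle library 3, which held the long Gria2 transcripts, and was -0.02 with transcripts weighted by length and -0.20 with the highest transcript alone. Gria1 had the most negative estimate, -0.10 ± 0.185 (SE, limma adjusted p = 1), which was 0.05 without mutant TAK-418 library 1. Cacng3 was 31.2, 33.7 and 31.7 after TAK-418, between the vehicle mutants and vehicle wild types in its mean, and its groups overlapped.

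TAK-418 in wild types gave 6 members higher and 3 lower, with a median of 0.02 beside -0.00 over all genes. Cacng8 had the largest positive estimate, 0.23 ± 0.171 (SE), from means of 86.3 ± 11.1 (SD, n = 3) and 103 ± 27.3 (SD, n = 5) (limma, adjusted p = 0.745). It was 0.08 without wild-type TAK-418 library 1, 0.01 with the highest transcript alone and -0.03 when averaged over coding exons. Cacng3 had the most negative estimate, -0.08 ± 0.0513 (SE, limma adjusted p = 0.714), which was -0.18 with transcripts weighted by length and 0.03 with the highest transcript alone.

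Under TAK-418, 7 members were higher and 2 lower in mutants than in wild types, with a median of 0.01 beside 0.00 over all genes. The largest positive estimate was Gria2 at 0.19 ± 0.201 (SE, limma adjusted p = 0.94), which was 0.07 without wild-type TAK-418 library 5, 0.04 with transcripts weighted by length and -0.21 with the highest transcript alone. The most negative was Cacng8 at -0.16 ± 0.171 (SE, limma adjusted p = 0.94), which was -0.02 without wild-type TAK-418 library 1 and 0.01 when averaged over coding exons, but -0.98 with transcripts weighted by length. Cacng3 was 32.5, 34.7, 33.5, 30.8 and 32.9 in wild types given TAK-418, a range that overlapped the mutants.

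The interaction tests whether the effect of TAK-418 differs between the genotypes. It contains the genotype difference under vehicle with its sign turned, which for Cacng3 was -0.20, beside -0.03 under TAK-418. Cacng3 had the largest positive estimate, 0.17 ± 0.0770 (SE), with an interval of 0.00 to 0.34 (limma, adjusted p = 0.979), and it was 0.08 with the highest transcript alone. Cacng8 had the most negative, -0.30 ± 0.256 (SE, limma adjusted p = 0.979), which was -0.07 when averaged over coding exons and -1.02 with transcripts weighted by length (limma adjusted p = 0.992). The intervals bound what these groups could show. For Gria3, Gria4, Cacng2, Cacng3 and the joint value of Cnih2 with Rab1b, each interval in the 4 contrasts of 2 groups lay between -0.32 and 0.22. Those of Cnih3 lay between -0.29 and 0.32, while for Gria2 they reached 0.77.

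**Figure D5:**
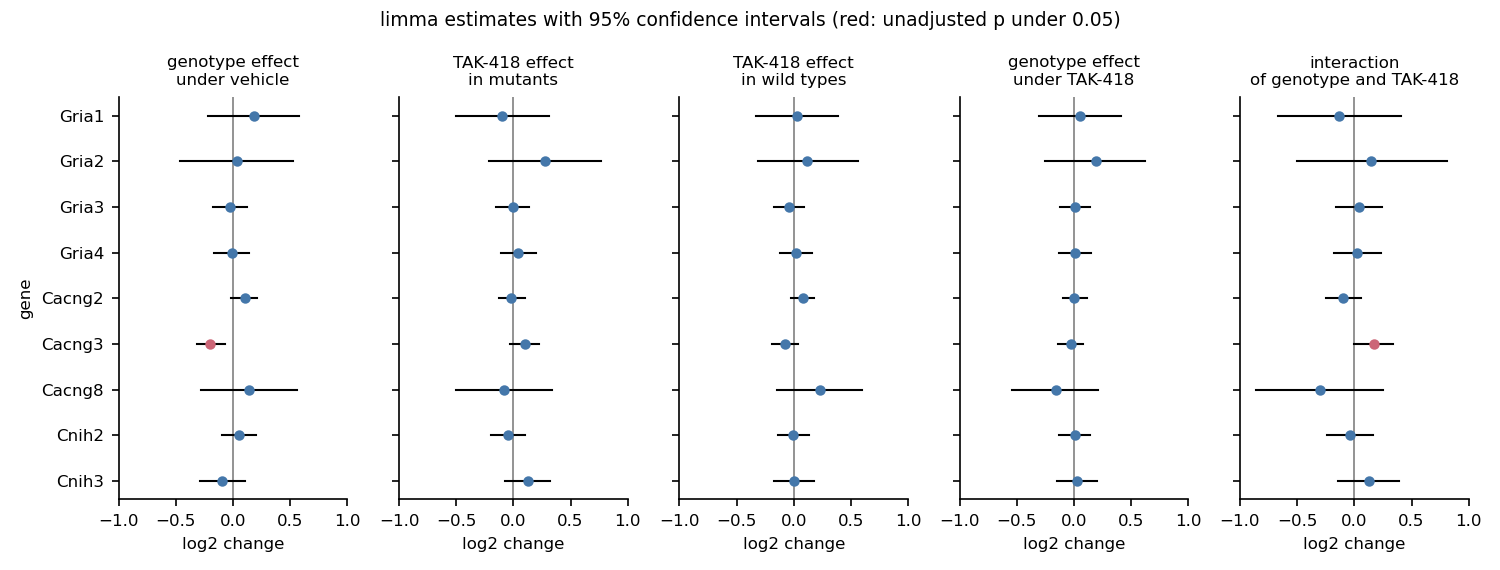
limma estimates of the log2 change (points) with 95% confidence intervals (lines) for the 9 genes in 5 contrasts; red marks an unadjusted p under 0.05. Most intervals cross 0, those of Gria1, Gria2 and Cacng8 are the widest, and Cacng3 is marked for the genotype under vehicle (-0.20) and the interaction (0.17).

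The authors' deposited tables compare pooled groups and hold 11 loci that name a member, of which 9 were tested in each table. No member locus had a q-value under 0.05 in the 4 tables, and 0 had a p-value under 0.05. The share of all tested loci with a q-value under 0.05 in the authors' deposited tables was 0.224% for mutant vehicle over wild-type vehicle and 0.218% for mutant over wild type under TAK-418. It was 0.324% for mutant TAK-418 over wild-type vehicle and 0.611% for mutant vehicle over wild-type TAK-418. The tables share groups, so they are not independent of each other. Log2 fold changes of the members ran from -0.20 to 0.12 in the authors' deposited tables. The smallest p-value there was 0.0946 for Cnih3, at 30.5 FPKM in wild-type TAK-418 and 26.6 in mutant vehicle (q-value 0.695). Cacng3 was lower in the mutant column in all 4 of the authors' deposited tables, with log2 fold changes of -0.16, -0.18, -0.08 and -0.11 and q-values from 0.705 to 1.

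Genes that work with the receptor were taken as a list of 45: other TARPs, cornichons and Shisa proteins, assembly factors, scaffolds, neuronal pentraxins, RNA editing enzymes and splicing factors. All 45 were tested and 0 passed the limma threshold in either direction in any of the 5 contrasts, the smallest adjusted p being 0.13. At an unadjusted p under 0.05 there were 1 higher and 4 lower for the genotype under vehicle, 1 and 1 for TAK-418 in mutants, 5 and 1 for TAK-418 in wild types, 2 and 3 for the genotype under TAK-418 and 2 and 3 for the interaction. These are 11.1%, 4.44%, 13.3%, 11.1% and 11.1% of the list, beside 5.36%, 4.42%, 8.44%, 4.95% and 4.37% of all genes tested. The median log2 difference of the list was between -0.02 and 0.04. The most abundant were Olfm1, a secreted protein of the receptor complex, at 588 ± 129 (SD, n = 14), and Nsf, a vesicle fusion ATPase that binds GluA2, at 492 ± 16.4 (SD, n = 14). Next came the neuronal pentraxin receptor gene Nptxr at 334 ± 23.1 (SD, n = 14) and Dlg4, the scaffold PSD-95, at 298 ± 14.2 (SD, n = 14).

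Cacng5, the type II TARP gamma-5 gene, was the 1 partner with a q-value under 0.05 in any of the authors' deposited tables. There it was 2.96 FPKM in wild-type vehicle and 4.51 in mutant TAK-418 mice, a log2 fold change of 0.61 (p-value 5e-05, q-value 0.0185). Per library its scaled abundance was 4.60, 3.97 and 3.88 in wild-type vehicle and 5.99, 5.77 and 5.70 in mutant vehicle mice. It was 3.40, 4.89, 4.53, 6.38 and 4.05 in wild types and 6.25, 6.50 and 6.60 in mutants given TAK-418. The vehicle groups did not overlap, and under TAK-418 1 wild type at 6.38 lay within the mutant range. The limit given above for 3 against 3 libraries holds for this separation too. The genotype difference was 0.41 ± 0.148 (SE) under vehicle (limma, adjusted p = 0.823) and 0.43 ± 0.133 (SE) under TAK-418 (limma, adjusted p = 0.927). The interaction for Cacng5 was 0.01 ± 0.199 (SE, limma adjusted p = 0.996). In the other 3 comparisons of the authors' deposited tables Cacng5 was higher in the mutant column, by 0.49, 0.31 and 0.20 on the log2 scale (q-values 0.148, 0.436 and 0.695). The tables share groups, so these differences are no independent evidence. In the comparison where Cacng5 passed, it was 1 of 49 partner loci tested, beside 0.324% of all tested loci called.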

How the data were processed

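Per the submitters' processing notes, reads were checked with FastQC and aligned with TopHat2 2.1.0 on mm10 (GRCm38). Per the file headers, the authors assembled transcripts of each library with CLASS 2.1.7. The deposited abundance score of each transcript has a scale close to FPKM, worked out from its values, and whether it counts reads or fragments is not given in the sources used here. The authors also deposited 4 tables in the layout of Cuffdiff with an FPKM value per pooled group, a log2 fold change, a p-value and a q-value. Group differences of the libraries and of the tables correlated positively across loci in all 4 tables (Pearson r 0.35 to 0.56 across loci, which are not independent replicates), which checked the direction.

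A transcript of several exons was given in full to each GENCODE M21 gene with which it shared an intron, so a joined transcript counted for each of its genes. A transcript of 1 exon was given to the gene it overlapped by at least 50%. Abundances were added up per gene, and median-of-ratios factors over 13846 genes put the libraries on 1 scale. A gene listed at 0 has no assembled transcript. Genes seen in 3 or more libraries entered the test as log2(value + 0.9) with limma 3.58.1 (lmFit, eBayes with trend; R 4.3.3), with 4 group means in 1 fit, Benjamini-Hochberg adjustment and a threshold of 0.05. Fold changes on this scale understate those of low genes. The step was tested on simulated data. The labels' protocols name 2 NEBNext kits, Ultra and Ultra II, without saying which library had which. The limma p-values set a group difference against the spread between libraries within groups. Litter, kit and sex, which Xist RNA marks, were not modelled. Xist RNA was present in 2 of 3 wild-type and 1 of 3 mutant vehicle libraries. Flip and flop exons were equal in length, alternative in protein-coding annotated transcripts (a nonsense-mediated decay transcript of Gria2 and of Gria3 holds both), and counted when both ends matched; their shares were compared by exact permutation tests. Other steps ran in Python 3.11.15 with scipy 1.17.1, numpy 2.4.6 and pandas 2.3.3, and plots with matplotlib 3.10.9.

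The 9 genes and all lists were chosen with earlier results of these data known. Changes of members are given where the unadjusted p was under 0.05 or the estimate was the highest or lowest of the 9. Partners are given for the 4 highest means, for any past a threshold and, in level only, for other TARP genes. Genes most like the members are the 3 with the highest and the 3 with the lowest Pearson r. Alternatives changed the pseudocount, the filter, the scaling, the gene value, the groups fitted and the libraries. Of the listed marker genes, 1 is not reported here and was left out of the summed values.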

Additional observations from a re-analysis of the deposited data

Results flagged for a closer look

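Of 13 measures examined in the 5 wild-type TAK-418 libraries (9 gene values and 4 flip shares), 1 had a library far from the others. Gria2 was 167 in library 5 against 239 to 257 in the other 4, a gap of 0.799 of the whole range where 0.71 is the limit for 5 values. Chance marks about 1 in 20 such groups. Averaged over coding exons Gria2 was 162 in that library, and its Gria2 transcripts had a mean length of 10260 bases.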

How the results depend on the processing

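The count of members called was 0 in each of the 5 contrasts and in all 96 alternatives. Of 192 recomputed member changes, 7 turned in direction, and the smallest adjusted p of the 192 was 0.438. With the highest transcript alone, Gria2 was -0.20 for TAK-418 in mutants and -0.21 for the genotype under TAK-418, and Cacng3 was 0.03 for TAK-418 in wild types. With transcripts weighted by length, Gria2 was -0.02 for TAK-418 in mutants. Averaged over coding exons, Cacng8 was -0.03 for TAK-418 in wild types and 0.01 for the genotype under TAK-418. Leaving out libraries moved Gria1 for TAK-418 in mutants from -0.19 to 0.05. The widest move was that of Cacng8 with transcripts weighted by length, to -0.98 for the genotype under TAK-418 and -1.02 for the interaction. The cause was not tested.

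Counts over all genes were small and moved with the setting. For the genotype under vehicle (0 called), 1 was called with the pseudocount divided by 10, no filter, the highest transcript, length weighting or coding exons, 6 with the compared groups alone, 4 without the 2 libraries richest in choroid plexus RNA, and 0 to 5 with single libraries left out. For TAK-418 in mutants (1) these were 2 with no filter, length weighting or coding exons, 0 with multi-exon transcripts, 16 with the compared groups alone, 7 without the 2 libraries and 1 to 6 with single libraries left out. For TAK-418 in wild types (0) they were 4 with the pseudocount divided by 10, 2 with no filter, length weighting or coding exons, 3 with the highest transcript, 1 with 1 gene per transcript, 7 with the compared groups alone, 1 without the 2 libraries and 0 to 3 with single libraries left out. For the genotype under TAK-418 (2) they were 4 with no filter, 1 with scaling to the total or length weighting, 5 with the highest transcript, 0 with multi-exon transcripts and 1 to 6 with single libraries left out. For the interaction (1) they were 2 with no filter or coding exons, 0 with multi-exon transcripts, 5 without the 2 libraries and 0 to 5 with single libraries left out. Assigning 1 gene per transcript, averaging over coding exons, leaving out the 2 libraries and matching exons by 1 splice site were chosen after seeing the data; 1 gene per transcript left too few Cnih2 values to test. No paired analysis was possible because the labels give no replicate numbers that link mice of different groups.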

Other observations

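The mean centred log2 value of the 9 members, a profile that spans only -0.07 to 0.07 over the 14 libraries, was compared with 13846 genes less the members. The most alike were Cyp2u1 (Pearson r = 0.88), Cdc7 (r = 0.84) and Plppr3 (r = 0.83), and the least alike Phldb2 (r = -0.94), Rubcnl (r = -0.83) and Gm1604a (r = -0.81). They are the extremes of a search over all those genes in 14 libraries, and all values of a library share its depth and scaling, so they are a description only.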
